A study of Mus musculus with 6 samples.

Results

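Microvillus structure genes were followed on 6 Affymetrix arrays, 3 from mice given H-Exo and 3 from mice given L-Exo. The 10 members are Vil1, Espn, Pls1, Eps8, Myo1a, Ezr, Cdhr2, Cdhr5, Ush1c and Myo7b. Each was taken as the probe set that the platform annotation gives its symbol, all 10 were found, and each had 1 probe set, out of 19505 genes with a named probe set. H-Exo are exosomes from the feces of obese C57BL/6 mice kept on a high-fat diet (HFD), and L-Exo are exosomes from the feces of lean mice kept on regular chow. The recipients of both groups were C57BL/6J mice that were themselves fed HFD and swallowed 2000000000 exosomes a day for 14 days, so the diet was shared and there was no untreated or vehicle group on the arrays. The fecal pellets of the donors were pooled, the methods describe the mice as male and as young adults when purchased, and the labels give no age at sampling. Neither labels nor methods tie the 3 arrays of a group to different animals. The p-values below therefore cover the spread between arrays, which may be technical.

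Microvilli are finger-like folds of the cell surface that carry a core of parallel actin filaments. They are packed into the brush border on absorptive cells of the small intestine and of the kidney tubule. Villin, plastin 1 and espin bundle the core, myosin 1A and ezrin tie it to the membrane, and the protocadherins CDHR2 and CDHR5 link the tips of neighbouring microvilli through a complex with harmonin and myosin 7B. In mouse intestine this programme depends on transcription factors of the CDX and HNF4 families, and the villin gene is a classical marker of the intestinal epithelium.

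The arrays are labelled liver, and this label was set against marker lists. Background was taken as the 95th percentile of each array's negative control probes, which was between 7.97 and 8.41 on the log2 scale. All 10 microvillus genes exceeded it on all 6 arrays, against 19.1% of all 19505 named genes. So did all 10 markers of epithelium, a list not limited to the intestine, and 7 of 9 measured enzymes and transporters of the brush border. Of 4 measured markers of bile duct cells, 2 did so, Krt7 and Cftr. Of 16 hepatocyte genes, 14 never exceeded it and only Hpd did so throughout. The 14 include Ttr, Fga, Fgb, Ahsg and Cyp2e1. The remaining gene, Alb, which encodes serum albumin, was at 5.14, 5.47 and 5.86 in H-Exo, below background on each array, and at 8.31, 8.26 and 10.72 in L-Exo, above it on each (limma adjusted p = 0.761). All 16 hepatocyte genes had a negative difference, H-Exo minus L-Exo, 5 of them with groups that did not overlap, beside 4.71% of all probe sets in that direction, and none passed the test. Of these 5, Fgb, Fgg, Cyp2e1 and Uox lay above background on no array, and Alb on 3. Of 7 kidney tubule markers, 6 never exceeded it, and the exception, Cubn, encodes a receptor that the ileum also makes. Of 11 measured genes of hair cell stereocilia, which are giant relatives of microvilli, 10 never exceeded it. The hepatocyte markers of the labelled tissue were thus largely at background, and these values go against the label. On bulk arrays fewer cells of a type and less RNA per cell cannot be told apart. The L-Exo replicate 1 array stood apart from the rest, with a mean correlation of 0.951 to the others, followed by H-Exo replicate 1 with 0.963, where the remaining 4 arrays had 0.971 to 0.975. Where leaving out L-Exo replicate 1 changed the sign of a member, both differences are given. Correlations and SDs are given only with it.

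The RefSeq table (build GRCm38.p6) lists a promoter for 8 of the 10 members, and 4 are shown because the results below turn on these genes. Ush1c is the member whose groups did not overlap, Vil1 and Myo1a are the pair with the most alike values over the arrays, and Cdhr5 is a member with a match to the motifs searched. Each run gives the 250 bases before the annotated start, 5′ to 3′ along the gene, with the matches in capitals.

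Ush1c, chr7:46238491-46238740, minus strand: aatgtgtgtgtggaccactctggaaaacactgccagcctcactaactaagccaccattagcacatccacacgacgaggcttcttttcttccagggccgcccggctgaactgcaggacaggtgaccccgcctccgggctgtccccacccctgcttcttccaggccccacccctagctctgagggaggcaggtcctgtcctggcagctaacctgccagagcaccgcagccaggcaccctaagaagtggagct
Vil1, chr1:74409134-74409383, plus strand: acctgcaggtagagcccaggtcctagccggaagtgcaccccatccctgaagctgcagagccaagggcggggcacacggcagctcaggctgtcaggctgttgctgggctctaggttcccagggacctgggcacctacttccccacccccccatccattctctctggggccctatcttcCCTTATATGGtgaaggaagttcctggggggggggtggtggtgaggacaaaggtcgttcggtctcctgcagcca
Myo1a, chr10:127705006-127705255, plus strand: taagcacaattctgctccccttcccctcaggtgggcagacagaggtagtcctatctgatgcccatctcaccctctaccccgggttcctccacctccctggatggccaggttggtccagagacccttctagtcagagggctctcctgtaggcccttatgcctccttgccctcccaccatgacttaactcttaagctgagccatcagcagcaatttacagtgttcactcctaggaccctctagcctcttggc
Cdhr5, chr7:141276787-141277036, minus strand: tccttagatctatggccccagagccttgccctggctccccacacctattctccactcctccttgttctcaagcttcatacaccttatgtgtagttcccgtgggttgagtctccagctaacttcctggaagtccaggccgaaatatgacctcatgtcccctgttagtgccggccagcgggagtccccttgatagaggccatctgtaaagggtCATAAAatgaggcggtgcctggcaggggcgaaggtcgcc

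The motifs were searched on both strands of these 250 bases, as TTTATG or TTTATT for the CDX type, CAAAGTCC or CAAAGTTC for the HNF4 type, AGATAA for the GATA type and TATAAA for the TATA box, and the CArG box of serum response factor by its name alone. These strings can overlap, since a CArG box may hold TATAAA or TTTATT. The CDX type was found at 2 of the 10 start sites listed for the members, at Cdhr5 from position -39 to -34, where TTTATG stands on the other strand, and at 1 of the 3 start sites of Espn, against 25.5% of all 32851 promoters in the table. The CArG box was found once, at Vil1 from position -73 to -64, against 1.47% of all promoters. The HNF4 type (2.08% of all promoters), the GATA type (9.99%) and the TATA box (12.4%) had no match at the members. A match is a string of letters and not a binding site.

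None of the 10 microvillus genes passed limma's test of H-Exo against L-Exo at an adjusted p under 0.05, beside 0% of the 22206 probe sets tested. Of all probe sets, 901 had an unadjusted p under 0.05 by limma and 921 by the methods' t-test. The lowest adjusted p of any member was 0.988, and 1 member had an unadjusted p under 0.05. On the log2 scale the differences, H-Exo minus L-Exo, ran from -0.20 for Cdhr2 to 0.78 for Ush1c, with 6 positive and 4 negative. Their median was 0.0618, beside a median of -0.00971 over all probe sets tested. The groups did not overlap for 1 member, with H-Exo above L-Exo, and for 4.9% of all probe sets in that direction. For no member did H-Exo lie wholly below L-Exo, against 4.71% of all probe sets. With 3 arrays against 3 an exact permutation test cannot give a two-sided p below 0.1.

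**Figure D1:**
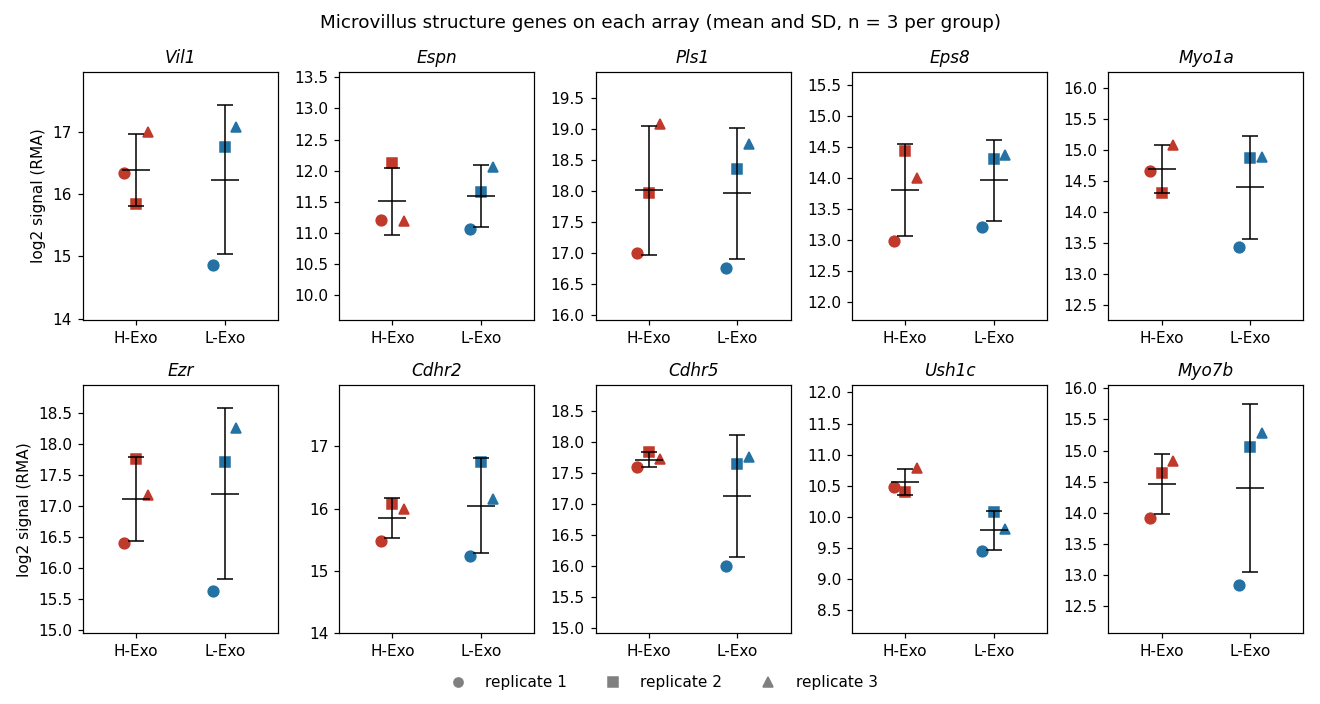
Log2 signal (RMA) of the 10 microvillus genes on each array, H-Exo on the left and L-Exo on the right of each panel, with a symbol for each replicate number and the mean and SD of 3 arrays. The L-Exo replicate 1 array holds the lowest value of 9 of the 10 genes, and the groups are apart only for Ush1c.

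Of the actin core, villin (Vil1), which bundles filaments and severs them when calcium is high, had log2 values of 16.34, 15.85 and 17.00 on H-Exo arrays 1 to 3 and of 14.86, 16.76 and 17.09 on L-Exo arrays 1 to 3. The groups overlapped, and the L-Exo replicate 1 array alone lay below all others. The mean was 16.40 ± 0.58 in H-Exo and 16.24 ± 1.20 in L-Exo (SD, n = 3 each), a difference of 0.16 with a 95% confidence interval of -1.13 to 1.45 (limma adjusted p = 0.992). Without L-Exo replicate 1 the difference was -0.53. Plastin 1 (Pls1), the fimbrin of intestinal microvilli, had 17.00, 17.97 and 19.08 in H-Exo and 16.77, 18.36 and 18.77 in L-Exo. In both groups replicate 1 was lowest and replicate 3 highest, so the arrays of a group were about 2 log2 units apart. Its difference was 0.0484 (95% confidence interval -1.35 to 1.45, -0.0722 after quantile normalization, -0.55 without L-Exo replicate 1). Its highest value lay 0.84 below the highest value on that array, where a larger signal may be compressed.

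Espin (Espn), a bundler that is also needed in hair cell stereocilia, had 11.21, 12.12 and 11.18 in H-Exo and 11.06, 11.65 and 12.06 in L-Exo. Its values lay within 1.06 of each other over all 6 arrays, the narrowest spread of the 10 genes, and its difference was -0.0846 (95% confidence interval -0.95 to 0.78). The platform annotation gives this probe set 6 RefSeq transcripts, so isoforms with different starts could not be told apart. Eps8, which caps filament ends at the tip, had 12.99, 14.44 and 14.01 in H-Exo and 13.21, 14.31 and 14.38 in L-Exo. Here both replicate 1 arrays lay more than 0.7 below the other 4, and Eps8 was the only member whose lowest value was on an H-Exo array. Its difference was -0.15 (95% confidence interval -1.19 to 0.88).

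Of the tethers between membrane and core, myosin 1A (Myo1a) had 14.66, 14.31 and 15.08 in H-Exo and 13.43, 14.87 and 14.88 in L-Exo. The L-Exo replicate 1 array again lay below the rest, the groups overlapped, and the difference was 0.29 (95% confidence interval -0.70 to 1.28). Without that array the difference was -0.19. Ezrin (Ezr), which binds actin and membrane proteins once it is phosphorylated, had 16.40, 17.75 and 17.18 in H-Exo and 15.63, 17.70 and 18.26 in L-Exo. It had the widest spread of the 10 genes over the arrays, 2.63, because L-Exo replicate 1 held its lowest and L-Exo replicate 3 its highest value. The difference was -0.0907, and its 95% confidence interval of -1.54 to 1.36 was the widest among the members.

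Of the adhesion complex at the tips, the protocadherin gene Cdhr2 had 15.47, 16.08 and 15.99 in H-Exo and 15.23, 16.75 and 16.16 in L-Exo, with overlapping groups and a difference of -0.20 (95% confidence interval -1.13 to 0.73). Its partner Cdhr5, which binds CDHR2 on the neighbouring microvillus, had 17.59, 17.83 and 17.72 in H-Exo and 16.00, 17.64 and 17.75 in L-Exo. The H-Exo arrays lay within 0.24 of each other, the closest of any member in a group, and only L-Exo replicate 1 stood off. The difference of 0.58 (95% confidence interval -0.45 to 1.62) rested on that array and was 0.0176 without it. Myo7b, the motor that holds the complex at the tip, had 13.92, 14.64 and 14.83 in H-Exo and 12.83, 15.06 and 15.28 in L-Exo. L-Exo replicate 1 was lowest there by 1.09 and the difference was 0.0752 (95% confidence interval -1.29 to 1.44). Without that array the difference was -0.71.

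Harmonin (Ush1c), the scaffold with PDZ domains that joins the protocadherins to the motor, had 10.47, 10.40 and 10.79 in H-Exo and 9.45, 10.08 and 9.80 in L-Exo. Every H-Exo array lay above every L-Exo array, the nearest pair being 0.32 apart. The mean was 10.55 ± 0.20 in H-Exo and 9.77 ± 0.31 in L-Exo (SD, n = 3 each). The difference of 0.78 corresponds to 1.72-fold, with a 95% confidence interval of 0.10 to 1.46 on the log2 scale. It did not pass the test over all probe sets (limma adjusted p = 0.988, unadjusted p = 0.0291), and the exact permutation test gave its smallest possible two-sided p of 0.1. Under other limma settings the unadjusted p ran from 0.019 after quantile normalization to 0.374 relative to the epithelium list. With trend and robust settings the unadjusted limma p was 0.0618. Leaving out 1 array put the difference between 0.62 and 0.93, and it was 0.66 without both replicate 1 arrays. Relative to the epithelium list it was 0.43, on a scale where the median of all probe sets was -0.358. Against the negative controls, Ush1c exceeded the 95th percentile on all 6 arrays and the 99th percentile on none. The probe set covers 3 RefSeq transcripts, and the short and long isoforms of harmonin could not be told apart.

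Another scaffold of this complex, Anks4b, which binds harmonin, and Calml4, a light chain of myosin 7B, are no members and were looked at beside them. Anks4b had 9.87, 10.99 and 10.82 in H-Exo and 11.90, 11.65 and 11.88 in L-Exo, so every H-Exo array lay below every L-Exo array. The difference was -1.25 (95% confidence interval -2.05 to -0.45, limma adjusted p = 0.988), a level 2.38-fold lower in H-Exo that did not pass the test. It lay between -1.47 and -0.90 when 1 array was left out. Calml4 had 11.84, 12.88 and 12.47 in H-Exo and 13.81, 12.82 and 13.19 in L-Exo, which overlapped narrowly, and its difference of -0.88 (95% confidence interval -1.74 to -0.02, limma adjusted p = 0.988) did not pass either and was -0.33 without both replicate 1 arrays. For both genes L-Exo replicate 1 held the highest value, where 9 of the 10 members had their lowest. The 6 genes of the complex thus had differences from -1.25 to 0.78 and did not share a direction. Whether the differences of these genes differ from each other was not tested.

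**Figure D2:**
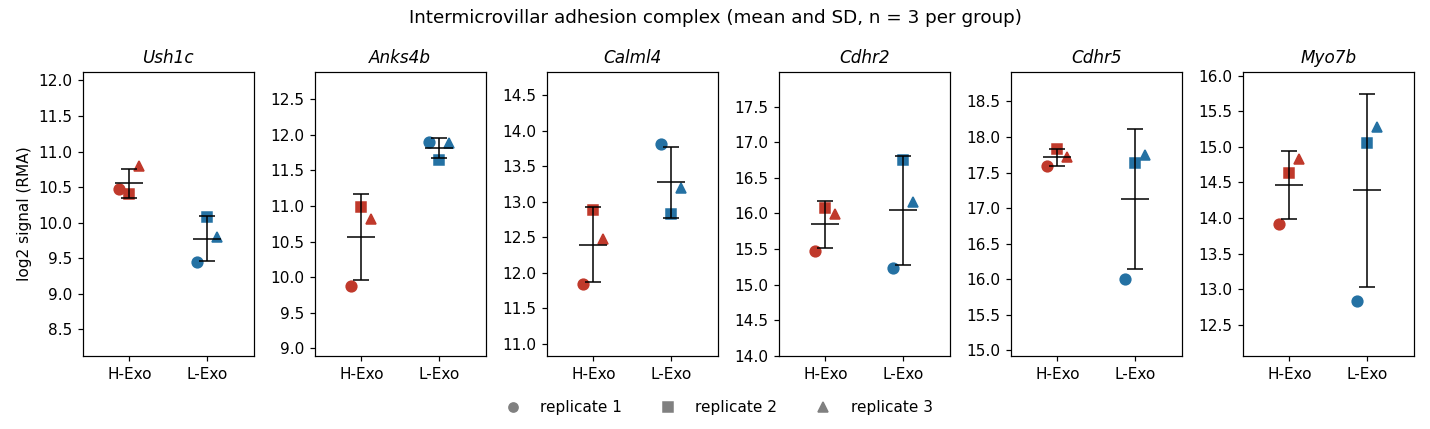
Log2 signal (RMA) of the 4 member genes of the intermicrovillar adhesion complex and of Anks4b and Calml4 on each array, H-Exo left and L-Exo right, with the mean and SD of 3 arrays. Ush1c lies between 10.40 and 10.79 in H-Exo and between 9.45 and 10.08 in L-Exo, and Anks4b between 9.87 and 10.99 in H-Exo and between 11.65 and 11.90 in L-Exo.

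The members varied together over the arrays. Over the 6 arrays the Pearson correlation was above 0 for 44 of the 45 pairs of members and had a median of 0.71, where the median over all pairs of 3642 genes above background and below the ceiling was 0.0348. These values describe 6 arrays on which all genes were read from the same samples. L-Exo replicate 1 is among them, and the correlations were not computed without it. Vil1 and Myo1a had the most alike values (r = 0.98), followed by Ezr and Myo7b (r = 0.954). The lowest values were those of Ush1c to Espn, Eps8, Cdhr2 and Ezr (r from -0.034 to 0.235), while its r to the other 5 members ran from 0.403 for Pls1 to 0.707 for Cdhr5. Espn also had low values to Myo1a (r = 0.274) and Vil1 (r = 0.316). Relative to each gene's own mean, the mean over the members was -0.335, 0.198 and 0.348 on H-Exo arrays 1 to 3 and -1.09, 0.379 and 0.502 on L-Exo arrays 1 to 3. L-Exo replicate 1 thus held low values of all 10 genes and H-Exo replicate 1 the lowest H-Exo value of 6. The median SD of the members was 0.50 in H-Exo and 0.91 in L-Exo, beside 0.39 in H-Exo and 0.47 in L-Exo for the 3642 genes.

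Muscle and stromal transcripts varied against this pattern. All 6 smooth muscle markers lay above background on all 6 arrays, and the mean of the 4 below the ceiling was 17.13, 15.42 and 14.61 on H-Exo arrays 1 to 3 and 17.06, 15.68 and 14.87 on L-Exo arrays 1 to 3. The replicate 1 arrays were highest in both groups, and r to the member profile was -0.86. It was -0.95 for the 5 measured stromal genes, of which 3 lay above background on all 6 arrays, and whose mean ran from 9.50 to 10.54 in H-Exo and from 8.79 to 11.03 in L-Exo. For the 8 epithelial markers below the ceiling r was 0.80, with a mean from 15.69 to 15.95 in H-Exo and from 14.64 to 15.83 in L-Exo, the lowest on L-Exo replicate 1. For 6 lymphocyte genes r was 0.03, although their mean was 6.75 to 8.67 in H-Exo and 5.68 to 5.82 in L-Exo. The part of muscle, stroma or epithelium content in the members' values was not tested.

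**Figure D3:**
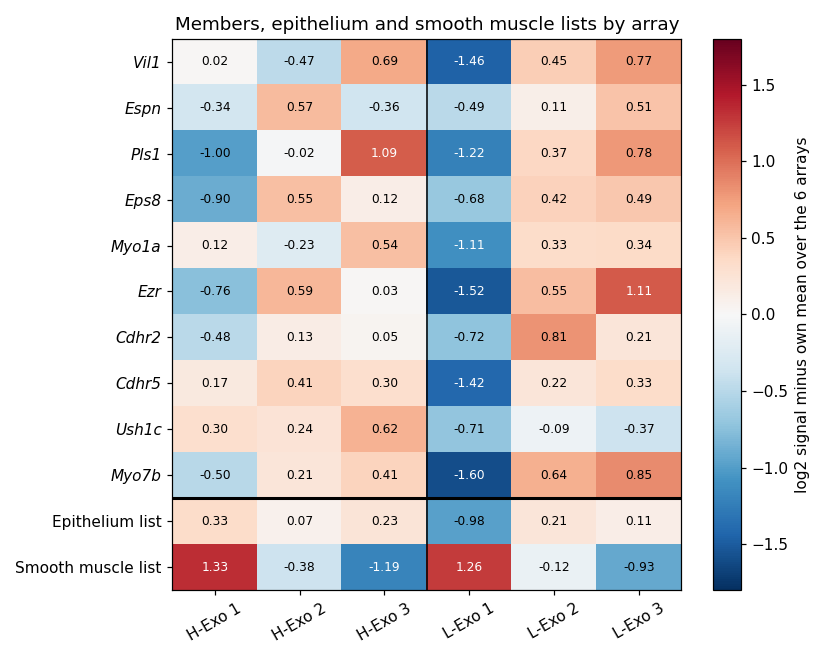
Log2 signal of the 10 members, and the mean of 8 epithelial and 4 smooth muscle markers below the ceiling, each minus its own mean over the 6 arrays, drawn as colours with H-Exo arrays left and L-Exo arrays right. All 10 members lie below their own mean on L-Exo replicate 1, where the smooth muscle list, at 17.06, is above its own mean.

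The direction of several members depended on which array was left out. Without L-Exo replicate 1 the median difference over the 10 genes was -0.53 and 8 of 10 were negative, the exceptions being Cdhr5 and Ush1c. Without both replicate 1 arrays it was -0.19, also with 8 of 10 negative. Ush1c and Cdhr5 were the positive genes in both settings, and no member passed limma's test in either. Relative to the mean of the epithelium list on each array the median of the members was -0.29, but this shifts every probe set by the same amount and put the median of all of them at -0.358, so the sign of a member on that scale is not read. Without H-Exo replicate 1 the count turned round, with 9 of 10 positive and a median of 0.28. Leaving out L-Exo replicate 2 or L-Exo replicate 3 also gave 9 of 10 positive, with medians of 0.33 and 0.48. Without H-Exo replicate 2, 5 were positive and 5 negative, with a median of 0.0298. Without H-Exo replicate 3, 4 were positive and 6 negative, with a median of -0.12.

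**Figure D4:**
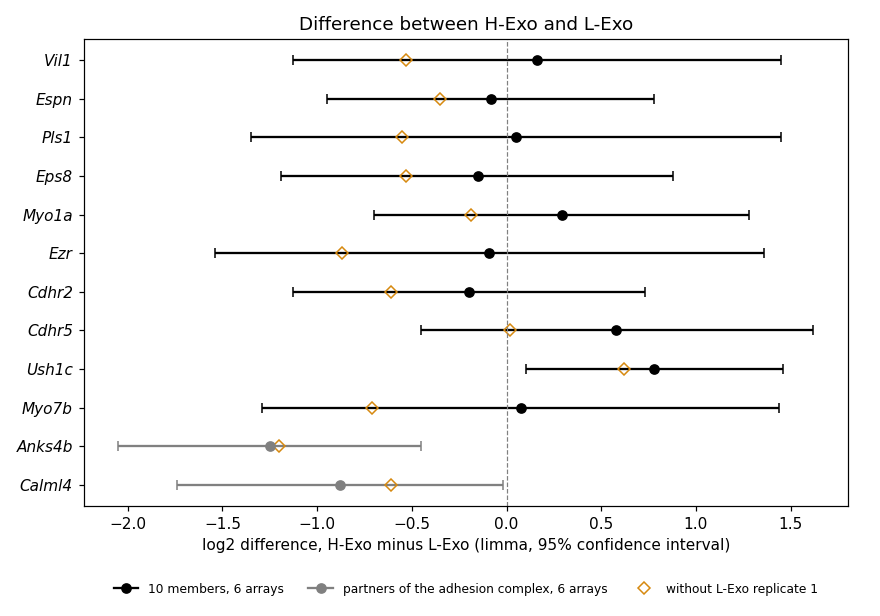
Log2 difference, H-Exo minus L-Exo, of the 10 members (black) and of Anks4b and Calml4 (grey), with 95% confidence intervals from limma on 6 arrays, and the same without L-Exo replicate 1 (open diamonds). The intervals of 9 members include 0, that of Ush1c runs from 0.10 to 1.46, and the open diamonds of 8 of the 10 members lie below 0.

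Of 28 other measured genes of microvillus assembly, apical traffic and the terminal web, 24 lay above background on all 6 arrays and none passed the test. Their median difference was 0.013, with 15 positive and 13 negative. The groups did not overlap for 1 gene in each direction, Myo1e with H-Exo higher and Anks4b with H-Exo lower. Of all probe sets, 4.9% did not overlap with H-Exo higher and 4.71% with H-Exo lower. Myo1e, a class I myosin, had a difference of 0.79 (95% confidence interval -0.10 to 1.68), and of 0.38 without L-Exo replicate 1. Myh9, a nonmuscle myosin of the terminal web, had one of 0.89 (95% confidence interval -0.07 to 1.86), which was 0.43 without H-Exo replicate 1 and 0.30 without both replicate 1 arrays. Cobl, an actin nucleator, and Slc9a3r1, the scaffold that anchors ezrin to membrane proteins, had differences of -0.27 and -0.22 with intervals that include 0. The signal was near the ceiling, less than 0.5 from the top value of the array, for Actb on all 6 arrays and for Tmigd1 on 3, so a difference in them could not be read.

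Of 10 transcription factors of the enterocyte programme, 6 lay above background on all 6 arrays, namely Cdx2, Hnf4a, Hnf4g, Klf4, Klf5 and Elf3, and none of the 10 passed the test. Cdx2 had a difference of -0.12 (95% confidence interval -1.03 to 0.79) and Hnf4a of 0.51 (95% confidence interval -0.52 to 1.55). For Hnf4a, L-Exo replicate 1 was at 13.21, below 14.92 and 14.74 on the other L-Exo arrays. Its difference without that array is not given here. Elf3, an ETS factor of epithelia, had the smallest unadjusted p of the list, with 12.52, 12.17 and 11.60 in H-Exo and 9.98, 11.20 and 11.75 in L-Exo. These groups overlapped, and the difference of 1.12 (limma adjusted p = 0.988) was 0.62 without L-Exo replicate 1. Klf5, a factor of the crypt and villus epithelium, was the 1 gene of the 10 with non-overlapping groups, beside 4.9% of all probe sets with H-Exo higher. Its difference was 0.70, and 0.21 without L-Exo replicate 1. Hnf4g had a difference of -0.94 (95% confidence interval -2.41 to 0.54), with H-Exo replicate 1 lowest at 15.31, and was at -0.12 without that array and at -0.0002 without both replicate 1 arrays. Gata4 lay above background on no array.

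Relatives of the members were sorted by whether they were detected. Of 24 measured, 10 lay above background on all 6 arrays and 12 on none. Beside villin, its relatives Scin, Gsn and Svil were detected on all 6 and Vill and Avil on none. Beside Myo7b, its relative Myo7a was detected on all 6 arrays, with a difference of 0.00902 (95% confidence interval -1.03 to 1.04). Eps8l2 and Eps8l3 were detected on all 6 and Eps8l1 on none, and of the class I myosins Myo1c, Myo1d and Myo1e on all 6 and Myo1f, Myo1g and Myo1h on none. Myo1c was a borderline case, since its smallest distance above background was 0.04. Espnl was detected on none, and neither were Cdhr1 and Cdhr3. Related genes can share probes, and the files do not give the probe sequences.

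Plastins and ERM proteins have forms that other cells use. Lcp1, the plastin of leukocytes, had 11.65, 11.94 and 9.94 in H-Exo and 9.68, 9.71 and 9.38 in L-Exo, so the groups did not overlap. Its difference was 1.59 (95% confidence interval 0.48 to 2.70, limma adjusted p = 0.988), beside 0.0484 for Pls1. Of 6 lymphocyte markers 5 had groups that did not overlap, with H-Exo higher, beside 4.9% of all probe sets, and none passed the test. Of these 5, Cd3d, Cd3e and Ms4a1 lay above background on no array, Cd79a on 2 and Ptprc on all 6. Ptprc, the leukocyte common antigen, was at 11.96, 13.13 and 10.61 in H-Exo and 9.72, 8.58 and 8.65 in L-Exo. Their part in the Lcp1 value was not tested. Of the ERM proteins beside ezrin, Msn lay above background on no array and Rdx on 1, so the Rdx difference of 1.10 gives a direction and no size. Of the 24 relatives 3 had groups that did not overlap (Lcp1, Myo1e and Rdx), all with H-Exo higher, beside 4.9% of all probe sets in that direction, and none passed the test.

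The genes whose values were most like the mean profile of the members over the 6 arrays were Dazap2 (r = 0.998), Elapor1 (r = 0.996), Sos2 (r = 0.996), Pdk2 (r = 0.994) and Hivep1 (r = 0.993). An r of at least 0.95 was reached by 107 of the genes above background and below the ceiling (2.95%), so the profile is not particular to microvillus genes. Dazap2 had 12.89, 13.29 and 13.42 in H-Exo and 12.21, 13.41 and 13.61 in L-Exo, with L-Exo replicate 1 lowest as in the members.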

How the data were processed

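RNA of 6 samples labelled liver was hybridised to Affymetrix arrays. The log2 values deposited by the authors came from RMA in Transcriptome Analysis Console 4.0, a method that subtracts background, puts arrays on a common distribution and merges probes into probe sets. Ratios between bright genes can be compressed near the ceiling. The genome build and RMA options were not given in the sources used here.

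H-Exo was compared with L-Exo by limma 3.58.1 in R 4.3.3 (lmFit, eBayes, two-sided, Benjamini-Hochberg over 22206 probe sets, adjusted p under 0.05), without filter or further normalization. Controls were set aside (5222 negative, 1418 other), and 2634 probe sets are unnamed here. The step was tested on simulated data with independent noise, which holds no variation shared between genes on an array. The outcome is not given here. The number of arrays limits the precision.

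The members, the lists and the alternatives were chosen with earlier results of these data known. Named were all members, Anks4b and Calml4, up to 4 genes with the smallest unadjusted p per list, relatives above background on all arrays, and the 5 genes of most alike profile. Other genes were named after their values were seen. Near the ceiling means within 0.5 of an array's highest value. The labels do not state that arrays with the same number are pairs, so replicate numbers were not taken as pairs in the main fit. Alternatives were trend and robust settings, 2 filters on dim probe sets, quantile normalization, array medians, array weights, a replicate block, the methods' t-test, the mean per gene, the epithelium list as reference, and leaving out arrays.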

Additional observations from a re-analysis of the deposited data

How the results depend on the processing

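The number of probe sets past limma's adjusted threshold was 0 of 22206 (901 at an unadjusted p under 0.05). It was 10 with array weights, 3 relative to the epithelium list (a count added after seeing the data), 1 without both replicate 1 arrays, 0 to 1 when 1 array was left out (Dbp without L-Exo replicate 1, Pla2g4c without H-Exo replicate 3), and 0 with the other limma settings. By the methods' t-test 921 reached an unadjusted p under 0.05, of which 0 held after adjustment. No member passed under any limma setting, and 1 member, Ush1c, passed the methods' t-test at its unadjusted threshold. With the replicate number as a block 0 probe sets passed (1154 at an unadjusted p under 0.05). Deviations of same-numbered arrays from their group means correlated at 0.2191, 0.0429 and 0.1819. Arrays with different numbers correlated at -0.2162 to 0.0849. Those numbered 1 and 3 correlated best with their own number, and those numbered 2 did not.

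Of 170 member values under 17 alternatives, 31 had the opposite sign. Some alternatives left every difference of a member as it was and could not change a sign. These were the trend and robust settings, the 2 filters on dim probe sets, the replicate block, the methods' t-test and the mean per gene. With array weights Vil1 was at -0.41, Pls1 at -0.20, Myo1a at -0.16 and Myo7b at -0.38. Relative to the epithelium list, where all probe sets shift alike and their median was -0.358, the same 4 genes were at -0.19, -0.30, -0.06 and -0.27, and Myo15, a stereocilia gene at background, at -0.0786. Without both replicate 1 arrays they were at -0.50, -0.0394, -0.18 and -0.44. Pls1 was at -0.0722 after quantile normalization. Leaving out 1 array put the median of the members between -0.529 and 0.485, Vil1 between -0.53 and 0.59, Espn between -0.39 and 0.15, Pls1 between -0.55 and 0.56, Eps8 between -0.53 and 0.26, Myo1a between -0.19 and 0.53, Ezr between -0.87 and 0.44, Cdhr2 between -0.61 and 0.15, Cdhr5 between 0.0176 and 0.89 and Myo7b between -0.71 and 0.52. The cause was not tested. Ush1c and Cdhr5 kept their sign under all 17, which include the alternatives that could not change it. With the 99th in place of the 95th percentile as background, 8 of 10 members exceeded it on all 6 arrays, the others being Espn (2 arrays) and Ush1c (0 arrays).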
